A study of Mus musculus with 8 samples.

Results

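The regions described here are the ATAC-seq peaks of mouse macrophages that LPS opened at least 2-fold in both animals. ATAC-seq reports open chromatin through the places where the Tn5 transposase can insert sequencing adapters. A peak belonged to the set when log2((LPS + 4)/(unstimulated + 4)), taken on the deposited RPKM values (reads in a peak scaled to its length and to the reads in all peaks), was at least 1 in mouse 1 and in mouse 2, and when its mean over the 8 libraries exceeded 9.71 RPKM. This rule found 1688 peaks, which are 2.27% of the 74207 peaks of the table and 2.53% of the 66772 peaks over the same minimum, all of which were tested. A further 377 peaks met the 2-fold rule but not the minimum, and are called the weaker peaks below. The rise with LPS alone chose the set, so it is given as a description. The responses with fenoterol present come from libraries that the 2-fold rule did not read, and were tested. The minimum on the mean did read those libraries, so the tested values had a part in choosing the set.

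The libraries came from bone marrow-derived macrophages of 2 wild-type (WT) C57Bl/6 mice, grown in CMG medium with serum. Each mouse gave 1 library per group, so n = 2 mice in each of 4 groups. The groups were unstimulated cells, cells given the β2 adrenergic agonist fenoterol at 1 µM for 15 min, cells given LPS at 100 ng/mL for 1 h, and cells given fenoterol for 15 min and then LPS for 1 h. Cells given fenoterol alone were collected after the 15 min, so time since the agonist differs between the groups with fenoterol. The series asks how β2 adrenergic signalling affects the early inflammatory response of macrophages. The 2 cultures of a group carry the same treatment and differ by animal.

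LPS is a lipopolysaccharide of the bacterial outer membrane that macrophages sense through a Toll-like receptor, and its signal reaches the nucleus through NF-κB, AP-1 and interferon regulatory factors. In macrophages these factors act largely at enhancers already marked by the lineage factor PU.1, and the DNA at many of these elements becomes more accessible once they bind. The β2 adrenergic receptor couples to the stimulatory G protein and raises cyclic AMP, which activates protein kinase A and the factor CREB. Fenoterol is a synthetic agonist of that receptor. The table pairs no peak with a gene, and no mm9 genome or gene annotation was used here. Peaks are therefore given by mm9 position, no gene or sequence is assigned to them, and the labelled cell type was not checked against marker genes.

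Depth differed between libraries, and this bears on the set. The unstimulated library of mouse 1 held 1426873 reads in peaks, as recovered from the RPKM values, and the remaining libraries held 3164446 to 4040292. At the median peak of the set this shallow library had 3 reads, with an exact 95% Poisson interval of 0.619 to 8.77. The other unstimulated library had 11 (5.49 to 19.7). There were 8 and 12 in the fenoterol libraries, 34 and 38 in the LPS libraries, and 39 and 38 in the fenoterol + LPS libraries. These intervals cover counting error only. In the shallow library 394 peaks of the set (23.3%) stood at the value of 1 read, which is also what a peak without reads was given, against 15 (0.889%) in the other unstimulated library.

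The set was less open without LPS than with it, whether or not fenoterol was given. Its median accessibility was 5.98 and 6.78 RPKM in the unstimulated libraries of mouse 1 and mouse 2, and 6.47 and 8.51 RPKM with fenoterol. With LPS it was 24.1 and 26.1 RPKM, and with fenoterol + LPS 25 and 27.1 RPKM. The medians of all 4 libraries with LPS thus lay well above those of the 4 without it. Over all tested peaks the medians ran only from 17.6 to 19.8 RPKM across the 8 libraries. The 2-fold rule read the unstimulated and LPS libraries, so low levels in the former and high levels in the latter follow from it. In the fenoterol libraries, which that rule did not read, the medians of the set were below those of all tested peaks. In the fenoterol + LPS libraries, also not read by it, they were above. Single peaks of the set reached 37.4 and 40.7 RPKM in the unstimulated libraries and 106 to 109 RPKM in the LPS and fenoterol + LPS libraries of mouse 2.

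**Figure D1:**
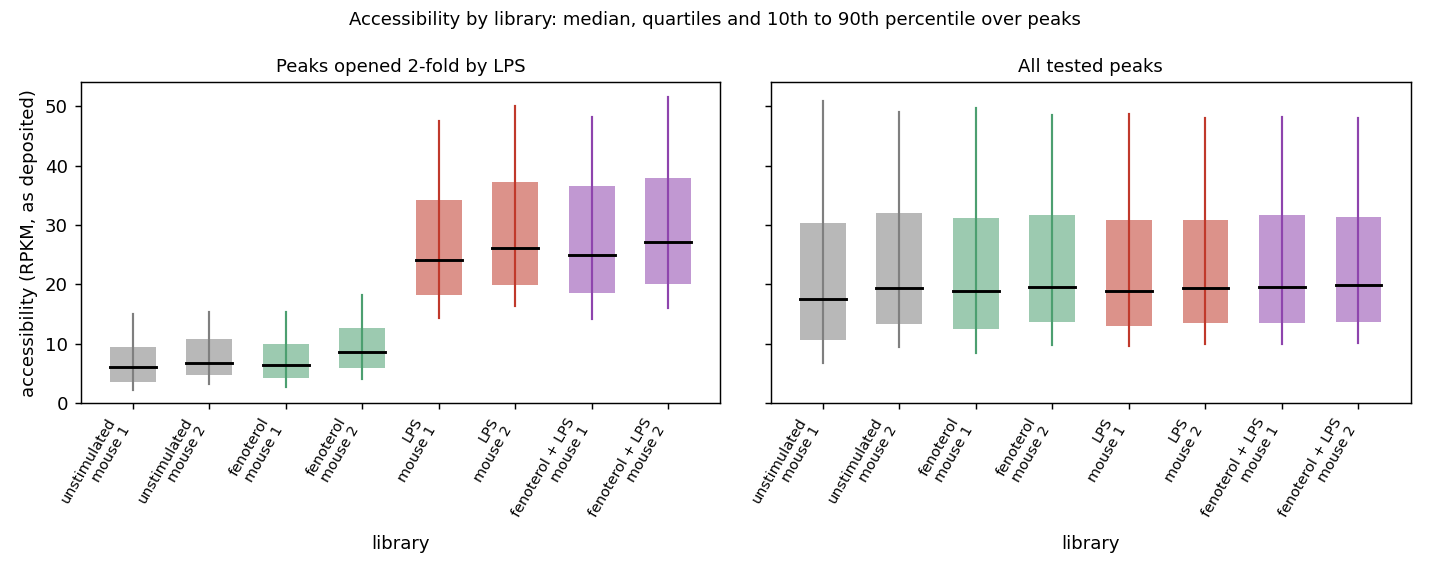
Accessibility in RPKM, as deposited, in each of the 8 libraries, for the LPS-opened peaks (left) and for all tested peaks (right); boxes span the quartiles, black lines are medians and thin lines span the 10th to the 90th percentile over peaks. The LPS-opened peaks have medians of 5.98 to 8.51 RPKM in the 4 libraries without LPS and of 24.1 to 27.1 RPKM in the 4 with it.

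In LPS against unstimulated, the contrast that chose the set, the fitted log2 change had a median of 1.44. Its quartiles were 1.26 and 1.63 and its highest value was 2.94. These and all other fitted changes are on the log2(RPKM + 4) scale after scaling of the libraries, which understates the ratio of low values. In this contrast 1662 of the 1688 peaks rose by limma-trend with Benjamini-Hochberg adjustment, and 0 fell, where 6.54% of all tested peaks rose and 3.54% fell, and nothing is read from that count. Leaving out the second LPS library brought it to 896. At the edge of the rule, the peak just inside lay on chromosome 13 at 16557137 to 16558026, with 7.10 and 11.1 RPKM unstimulated and 21.1 and 26.3 RPKM with LPS in mouse 1 and mouse 2. The peak just outside lay on chromosome 1 at 146090214 to 146091074, with 29.4 and 33.4 RPKM unstimulated and 62.7 and 71.6 RPKM with LPS. The lower of their 2 log2 changes was 1.0006 and 0.9999, so the edge of the set separates peaks with nearly the same change.

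With fenoterol given first, most of the same regions were again more open after LPS. Cells with fenoterol alone were collected earlier, so time since the agonist cannot be told apart from LPS here. This comparison, of fenoterol + LPS with fenoterol, uses none of the 4 libraries on which the 2-fold rule was applied. Of the 1688 peaks, 1423 (84.3%) rose and 0 fell by limma-trend, where 9.43% of all tested peaks rose and 4.32% fell. At an unadjusted p under 0.05, 1569 were higher and 0 lower, against 15.1% and 11.1% of all tested peaks. Voom, a weighted fit of the recovered reads, called 1518 higher and 0 lower, against 12.1% and 7.13%. The median log2 difference was 1.42, with quartiles of 1.08 and 1.74, against -0.03 over all tested peaks. By animal, the medians were 1.48 in mouse 1 and 1.34 in mouse 2. The 2 animals were both higher at 1649 peaks (97.7%) and both lower at 3 (0.178%), where 32.6% and 37.1% of the tested peaks were. At 1128 (66.8%) it was at least 2-fold above in both mice, against 3.72%. At 1632 peaks (96.7%) both fenoterol + LPS values lay above both fenoterol values, against 27.1% of the tested peaks, and at 2 (0.118%) both lay below, against 30.3%. The fit took its spread from all 8 libraries. With only the 4 libraries of this comparison 1496 rose and 0 fell. Nothing is read from that count, because the share of all tested peaks called by this fit is not given here.

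The minimum on the mean read all 8 columns, so the libraries with fenoterol had a part in choosing the set. At 148 of the 1688 peaks the mean of the LPS and unstimulated columns alone was at or under the minimum. The 1423 peaks that rose were not counted again without these 148. Selecting by the mean of the LPS and unstimulated columns alone gave 1622 peaks, and at 1581 of these (97.5%) both mice were higher in this comparison. The 377 weaker peaks, left out by the minimum, behaved alike: 361 (95.8%) were higher in both mice, against 49.7% of all peaks under the minimum. Their median log2 difference was 1.23.

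**Figure D2:**
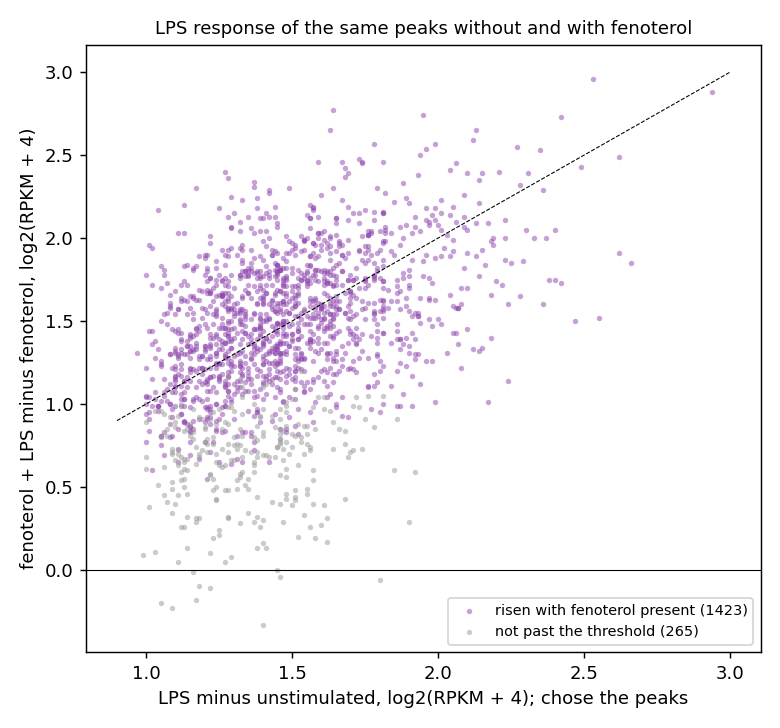
Each point is 1 of the 1688 LPS-opened peaks; the x axis is the fitted log2(RPKM + 4) difference of LPS and unstimulated, on which the peaks were chosen, and the y axis that of fenoterol + LPS and fenoterol. The 1423 peaks that rose with fenoterol present are purple, the 265 others grey, and the dashed line marks equal differences; only a few points lie below 0 on the y axis.

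The size of the LPS change without fenoterol and the size with fenoterol went together less closely within the set than over all tested peaks. Set across animals, so that no library is shared, LPS minus unstimulated in mouse 1 and fenoterol + LPS minus fenoterol in mouse 2 had a Pearson's r of 0.22 and a Spearman's rho of 0.21 over the 1688 peaks. The opposite pairing gave 0.39 and 0.37. The 2 mice's own responses with fenoterol present correlated at 0.56 and 0.55. Over all 66772 tested peaks the same pairings gave a Pearson's r of 0.48, 0.58 and 0.66 and a Spearman's rho of 0.41, 0.48 and 0.57. These are descriptions over peaks, which share their libraries and are not independent replicates, and the rule narrows the range of the first variable. Grouped by the lower of the 2 mice's LPS changes, 78.7% of the 844 peaks nearest the threshold rose again with fenoterol present, 86.4% of the next 492 up to log2 1.5, 94.2% of 309 from there up to 2, and 43 of 43 above. The peaks with the strongest LPS response were thus the ones most often called again.

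How many peaks were called again also varied with the reads behind them. Among the 394 peaks at 1 read in the unstimulated library of mouse 1, 68.8% rose with fenoterol + LPS, against 84.5% of the 795 with 2 to 5 reads and 96.2% of the 499 with 6 or more. These classes also differ in width, with medians of 288, 393 and 551 bp, and in mean reads over the 4 libraries with fenoterol, with medians of 14, 22.5 and 53.2. Their median log2 differences were 1.36, 1.44 and 1.44, so the share called varied more than the size of the change. The rule applied to mouse 1 alone found 5289 peaks, 43.8% of which rose with fenoterol + LPS, and applied to mouse 2 alone 2955 peaks, 73.5% of which rose. Requiring both mice gave the 84.3% above, and requiring 3-fold in both mice gave 255 peaks with 96.9%.

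The 265 peaks that did not pass the threshold were narrower than the 1423 that rose, lower with fenoterol + LPS and higher with fenoterol, the 2 groups whose difference divides them. Their median level was 15.8 RPKM with fenoterol + LPS and 8.41 RPKM with fenoterol, against 28.7 and 7.16 RPKM at the peaks that rose. Their median width was 317 bp against 424 bp, and they held a median of 13.8 reads per library with fenoterol against 27.8. At 226 of the 265 fenoterol + LPS was above fenoterol in both mice, as it was at 32.6% of all tested peaks. The median log2 difference over the 265 was 0.70.

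The 10 peaks with the largest rise over fenoterol, among those that passed and were higher in both mice, went from a mean of 3.91 to 8.44 RPKM with fenoterol up to 47.6 to 87.2 RPKM with fenoterol + LPS. The highest lay on chromosome 14 at 103456180 to 103456905. It measured 13.5 and 14 RPKM unstimulated, 3.92 and 12.9 RPKM with fenoterol, 93.6 and 109 RPKM with LPS, and 68.6 and 106 RPKM with fenoterol + LPS in mouse 1 and mouse 2. All 4 values with LPS lay far above the 4 without it, and the 2 fenoterol + LPS values spanned the lower LPS value (log2 difference to fenoterol 2.96, SE 0.24, adjusted p = 2.23e-07 by limma-trend). Its neighbour at 103457007 to 103457218, which has the highest LPS change of the set, had 3 and 13.9 RPKM with fenoterol and 59.3 and 102 RPKM with both agents. That difference was 2.88 on the log2 scale, with an SE of 0.30.

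The smallest adjusted p in this comparison belonged to a peak on chromosome 13 at 75891656 to 75892245. It had 10.7 and 9.67 RPKM unstimulated, 5.90 and 9.50 RPKM with fenoterol, 52.5 and 54.1 RPKM with LPS, and 65.0 and 63.9 RPKM with both. Both mice thus gave nearly the same open level (log2 difference to fenoterol 2.57, SE 0.18, adjusted p = 1.21e-07 by limma-trend). On chromosome 11, the peak at 81825344 to 81825697 had 19.9 RPKM unstimulated in mouse 1, above its 5.61 RPKM in mouse 2 and its 2.69 and 6.04 RPKM with fenoterol. With LPS it stood at 47.5 and 41.3 RPKM and with both agents at 57.8 and 46.5 RPKM. On chromosome 19, the peak at 6273867 to 6274084 had 2.91 and 4.91 RPKM with fenoterol and 54.1 and 43.0 RPKM with both, from 2 and 4 reads in the fenoterol libraries. Of the 10 peaks, 7 lay within 10 kb of another peak of the set. Their calls were kept under all 19 alternatives.

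The most open peaks of the set under LPS stood at 89.2 to 101 RPKM as the mean of the 2 mice. After the chromosome 14 peak, the tallest lay on chromosome 11 at 44203376 to 44204167, with 31.9 RPKM in both unstimulated libraries, 31.2 and 30.0 RPKM with fenoterol, 90.1 and 98.0 RPKM with LPS and 82.0 and 90.8 RPKM with both. The next, on chromosome 7 at 99847027 to 99847741, had 33.4 and 37.4 RPKM unstimulated and 37.2 and 44.8 RPKM with fenoterol, and rose to 92.2 and 95.1 RPKM with both agents. These regions were open before LPS, unlike most of the set. The other 2 of the 5 lay on chromosome 5 at 145012845 to 145013465 and on chromosome 3 at 126530816 to 126531336. The smallest log2 difference to fenoterol among the 5 was 1.02, with an adjusted p of 5.78e-05 by limma-trend, at the chromosome 5 peak.

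At the low end, the 3 peaks at which both mice fell short of fenoterol with fenoterol + LPS are among the lowest of the set. The 6 lowest log2 differences ran from -0.33 to -0.10. None of these 6 passed the threshold (adjusted p from 0.516 to 0.897 by limma-trend). The lowest lay on the X chromosome at 137068838 to 137069040. It had 3.47 and 8.58 RPKM unstimulated, 20.3 and 17.1 RPKM with fenoterol, 19.7 and 24.5 RPKM with LPS and 13.9 and 14 RPKM with both. Fenoterol values were thus near LPS values at this peak, and the first unstimulated value was 1 read. The 6 were narrow, at 200 to 352 bp, and held 1 or 2 reads in the unstimulated library of mouse 1, where 4 of them stood at 1 read.

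Fenoterol for 15 min left the set close to its unstimulated state. Because the rule favours peaks with low unstimulated values, this comparison is a description. By limma-trend 0 of the 1688 peaks rose and 0 fell, where 0.00599% of all tested peaks rose and 0.0015% fell. At an unadjusted p under 0.05, 134 (7.94%) were higher and 47 (2.78%) lower, against 3.9% and 3.54% of all tested peaks, and voom called 1 higher and 0 lower, against 0.0434% and 0.003%. The median log2 difference was 0.08, with 0.01 in mouse 1 and 0.18 in mouse 2, against -0.02 over all tested peaks. Both mice were higher at 35.5% of the peaks and lower at 15.4%, against 23.8% and 28.2% of the tested peaks, and at 829 (49.1%) they went opposite ways. When the deeper unstimulated library was left out, so that the shallow one stood for its group, some peaks were called in both directions. The share of all tested peaks called by that fit is not given here, so nothing is read from it.

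The largest fenoterol differences in the set were at peaks with almost no unstimulated reads. All of the 4 highest stood at 1 read in the unstimulated library of mouse 1. After the X chromosome peak, the next lay on chromosome 16 at 44002164 to 44002555, with 1.79 and 3.80 RPKM unstimulated, 11.3 and 11.6 RPKM with fenoterol, 8.71 and 13.4 RPKM with LPS and 18.9 and 18.1 RPKM with both. Its fenoterol and LPS values overlapped (log2 difference of fenoterol and unstimulated 1.17, SE 0.33, adjusted p = 0.437 by limma-trend). The other 2 lay on chromosome 4 at 83619287 to 83619486 and on chromosome 1 at 100629409 to 100629680, each with a log2 difference of 1.11.

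Under LPS, giving fenoterol first left the level of the set near that with LPS alone. The rule favours peaks with high LPS values, so this too is a description. The median log2 difference of fenoterol + LPS and LPS was 0.02, with quartiles of -0.16 and 0.21, against -0.01 over all tested peaks. In mouse 1 it was 0.03 and in mouse 2 it was 0.04. Both mice were higher with fenoterol at 602 peaks (35.7%) and lower at 470 (27.8%), against 29% and 29.2% of all tested peaks. By limma-trend 0 peaks rose and 0 fell, as over all tested peaks (0%). At an unadjusted p under 0.05, 55 (3.26%) were higher and 46 (2.73%) lower, against 4.25% and 2.4% of all tested peaks. Voom called 13 peaks higher (0.77%) and 11 lower (0.652%), where it called 0.548% of all tested peaks higher and 0.0509% lower. With the fit limited to the 4 LPS-treated libraries, limma-trend called 11 higher and 10 lower. The share of all tested peaks called by that fit is not given here, so nothing is read from these counts.

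The 24 peaks called by voom, a set singled out after their values were seen, parted the 2 groups with LPS without overlap, which 20.7% of all tested peaks did upward and 20.9% downward. At the 13 higher ones the median level was 21.7 RPKM with LPS and 42.9 RPKM with fenoterol + LPS, and all 13 rose over fenoterol by limma-trend. At the 11 lower ones it was 32.5 RPKM with LPS and 18.1 RPKM with both. Their medians were 7.38 RPKM unstimulated and 7.99 RPKM with fenoterol, and 5 of the 11 rose over fenoterol. The 13 and the 11 were picked on their fenoterol + LPS values, so their counts over fenoterol follow in part from that choice. Of the whole set 84.3% rose over fenoterol, and of all tested peaks 9.43%. The adjusted p of the 24 by limma-trend on all libraries ran from 0.162 to 0.819.

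The lowest difference to LPS was at 2 peaks less than 1 kb apart on chromosome 13 and at 1 peak on chromosome 1. The chromosome 13 peak at 111192239 to 111192562 had 8.69 and 5.36 RPKM unstimulated, 9.78 and 4.12 RPKM with fenoterol, 29.9 and 23.8 RPKM with LPS and 6.32 and 6.13 RPKM with both. Its LPS values were the only ones above 10 RPKM (log2 difference to LPS -1.59, SE 0.35; adjusted p = 0.321 by limma-trend and 0.00266 by voom). Its neighbour at 111191792 to 111191991 had 34.2 and 26.2 RPKM with LPS and 14.1 and 5.69 RPKM with both, a log2 difference of -1.36 (adjusted p = 0.435 by limma-trend and 0.0486 by voom). The chromosome 1 peak at 192991601 to 192992401 had 39.0 and 33.7 RPKM with LPS and 9.25 and 12 RPKM with both, beside 9.88 and 13 RPKM with fenoterol. At this peak the values with both agents lay within the range of the fenoterol values or just under it (log2 difference to LPS -1.47; adjusted p = 0.162 by limma-trend and 1.99e-10 by voom). The fourth, on chromosome 10 at 109424735 to 109424934, had 15.7 and 33.2 RPKM with LPS and 7.69 and 9.95 RPKM with both, and passed by neither test.

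In the other direction, the peak on chromosome 11 at 113628354 to 113628600 had 17.3 and 23.5 RPKM with LPS and 46.7 and 39.1 RPKM with fenoterol + LPS, beside 10.3 and 10.8 RPKM with fenoterol. The log2 difference to LPS was 0.94 (SE 0.28; adjusted p = 0.461 by limma-trend and 0.0398 by voom). The peak on chromosome 10 at 119625599 to 119625922 had 22.0 and 19.6 RPKM with LPS and 45.8 and 41.2 RPKM with both, a log2 difference of 0.93 (adjusted p = 0.483 by limma-trend and 0.0106 by voom). At both peaks the 2 groups with LPS did not overlap. The peaks on chromosome 6 at 16832820 to 16833067 and on chromosome 16 at 91362941 to 91363224 had log2 differences of 0.88 each and passed by neither test.

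**Figure D3:**
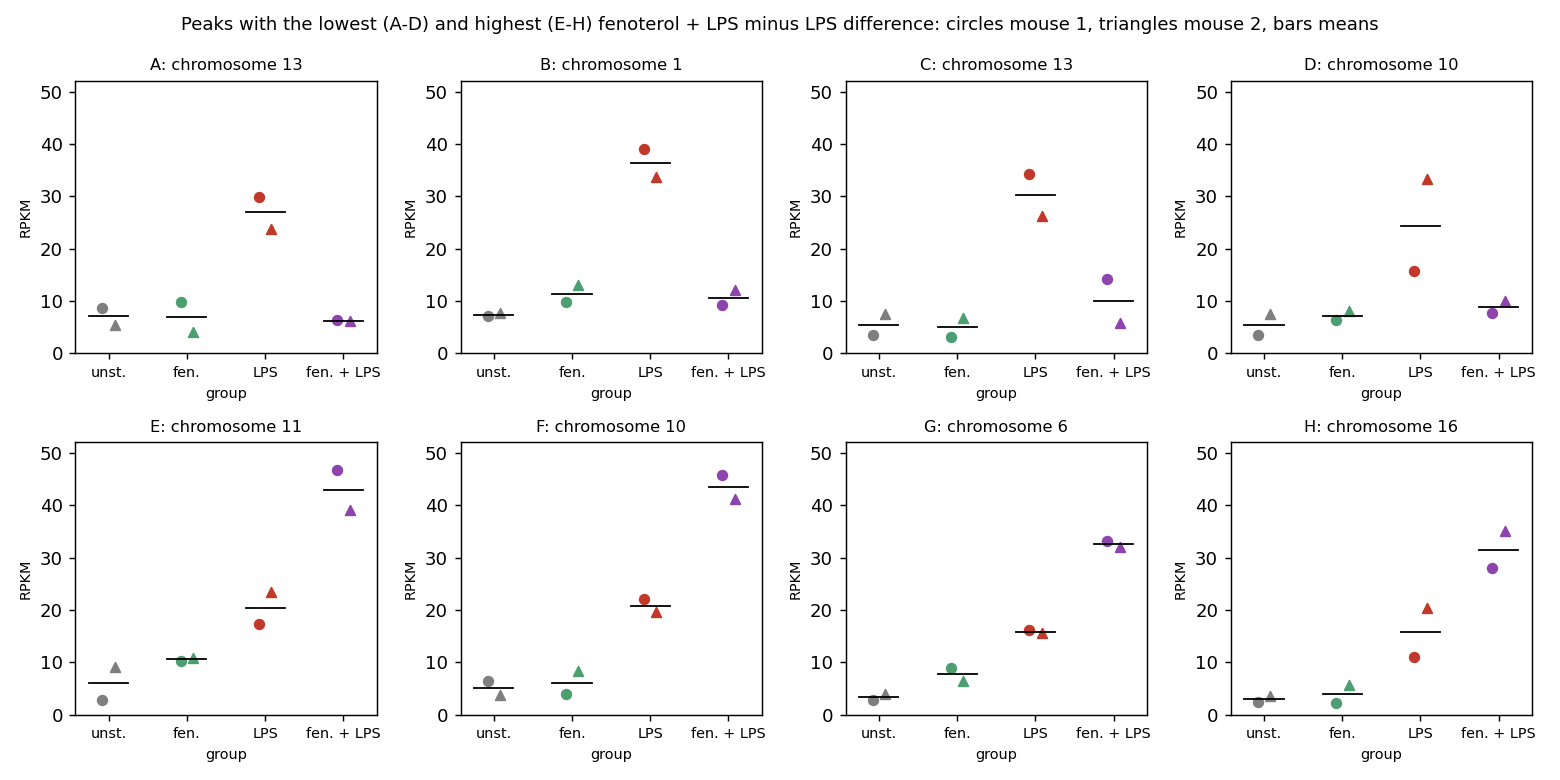
RPKM in all 8 libraries at the 4 peaks of the set with the lowest (A to D) and the 4 with the highest (E to H) difference of fenoterol + LPS and LPS, in that order; circles are mouse 1, triangles mouse 2 and bars the mean of the 2 mice. In A, on chromosome 13, LPS values are 29.9 and 23.8 RPKM and those with both agents 6.32 and 6.13 RPKM; in E, on chromosome 11, they are 17.3 and 23.5 against 46.7 and 39.1 RPKM.

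Peaks of the set were of ordinary width, with few broad ones. Their median width was 406 bp, with quartiles of 317 and 515 bp, against 422 bp and quartiles of 326 and 573 bp for all tested peaks. Peaks of 1000 bp or more made up 1.24% of the set (21 peaks) and 4.82% of all tested peaks, and peaks of 200 bp, the narrowest in the table, 3.2% (54 peaks) and 3.45%. Width rises with level in this table. Within 10.6 to 31.9 RPKM of mean level, the 10th to 90th percentile of the set, the order turned: the median was 405 bp for the set and 391 bp for the tested peaks, and 0.815% and 1.39% were 1000 bp or wider. The 3 widest peaks of the set measured 1466, 1454 and 1438 bp. The widest, on chromosome 12 at 112693459 to 112694924, had 16.3 and 13.3 RPKM unstimulated, 14 and 15.3 RPKM with fenoterol, 60.7 and 62.1 RPKM with LPS and 62.4 and 68.4 RPKM with both. With 34 to 84 reads in the 4 libraries without LPS it is among the better measured peaks of the set (log2 difference of fenoterol + LPS and fenoterol 1.90, SE 0.15, adjusted p = 2.26e-07 by limma-trend).

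The share of peaks that rose with fenoterol + LPS grew with width in the set. It was 67.5% of 363 peaks under 300 bp, 82% of 445 from there to under 400 bp, 91% of 658 up to under 600 bp, 96% of 201 up to under 1000 bp and 21 of 21 above. The log2 differences behind these shares were alike, with medians from 1.32 to 1.48. Median reads per library with fenoterol rose along the same classes from 12 to 134, and their part in the shares was not tested. Over all tested peaks the shares were 8.48%, 9.24%, 11.6%, 8.17% and 3.67% in the same order, so there the share rose up to under 600 bp and was lower in the 2 widest classes.

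The set was spread over the genome. It held between 1.71% of the tested peaks of chromosome 7 (69 peaks) and 3.41% of those of chromosome 16 (82 peaks) among the autosomes, 1.9% on the X chromosome (29 peaks) and 0 of 32 on the Y chromosome. Chromosome 2 had the most, at 138 peaks, and chromosome 12 the second highest share, at 3.08%.

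Peaks of the set often lay near one another. With a gap of at most 10 kb from the end of 1 peak to the start of the next, 302 peaks (17.9%) fell into 132 runs, and 1386 had no other peak of the set so near. Of the tested peaks outside the set, 4.06% had a peak of the set within 10 kb. The set also lies in denser parts of the table, with a median gap of 2761 bp to the nearest tested peak against 4812 bp for all tested peaks. Its share in runs is to be read beside that. Of the runs, 26 held 3 or more peaks, 9 held 4 or more, and 94 had no tested peak outside the set between their members. Within 10 kb, neighbours can be parts of 1 open stretch cut up by the peak caller, and fragments of up to 1000 bp can reach 2 peaks, so members of a run are not independent.

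Peaks in runs were more open with LPS and fenoterol than the solitary ones. Their median was 33.8 RPKM with fenoterol + LPS and 8.36 RPKM with fenoterol, against 24.7 and 7.33 RPKM at solitary peaks. With fenoterol present 280 of the 302 (92.7%) rose, with a median log2 difference of 1.62, and 1143 of the 1386 solitary peaks (82.5%), with a median of 1.38. In 111 of the 132 runs every member rose.

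Of the 6 runs with the most members, 3 held 5 peaks and 3 held 4. The first, on chromosome 17 at 35335631 to 35347597, had 5 peaks with no tested peak outside the set among them. Averaged over its members it stood at 22 and 17.6 RPKM unstimulated, 12.5 and 17.5 RPKM with fenoterol, 65.3 and 69.6 RPKM with LPS and 51.8 and 66.2 RPKM with both. All 5 rose with fenoterol + LPS, by log2 differences of 1.04 to 2.55. Its 4 leading peaks lie within 4 kb and each exceeded 50 RPKM in every library with LPS, whereas the last, at 35346727 to 35347597, reached 29.7 to 34.4 RPKM. The 947 bp peak at the start of the run had 17.8 and 10.7 RPKM unstimulated, 4.68 and 11.3 RPKM with fenoterol, 82.5 and 86.6 RPKM with LPS and 57.2 and 69.4 RPKM with both.

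The run on chromosome 16 at 84702982 to 84721264 had 5 peaks over 18.3 kb. Its members averaged 14.9 and 16.4 RPKM unstimulated and 10.4 and 15.7 RPKM with fenoterol, and 57.9 and 75.6 RPKM with LPS against 57.2 and 71.7 RPKM with both. In both groups with LPS, mouse 2 was the higher of the 2 mice at each of the 5 peaks. All 5 rose with fenoterol + LPS, the most at 84717504 to 84717797 (log2 difference 2.65, SE 0.20, adjusted p = 1.49e-07 by limma-trend). The third run of 5, on chromosome 11 at 54767546 to 54787668, was the least open of the 3, at 5.54 and 8.09 RPKM unstimulated and 28.7 and 31.0 RPKM with LPS. Its first peak, at 54767546 to 54767901, had 4.45 and 4.50 RPKM with fenoterol and 42.4 and 64.5 RPKM with both. Its last, at 54787331 to 54787668, had 7.50 and 15.0 RPKM with fenoterol and 19.7 and 23.5 RPKM with both and did not pass (adjusted p = 0.0817 by limma-trend).

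Among the runs of 4, all 4 peaks rose on chromosome 9 at 20820100 to 20834854 and on chromosome 5 at 92775084 to 92778213. The chromosome 9 run had nearly the same mean level in both groups with LPS, at 45 and 45.8 RPKM with LPS and 44.2 and 46.3 RPKM with both. The chromosome 5 run is the most compact, at 3.13 kb, and was the lower with fenoterol + LPS in both mice, at 32.6 and 45.8 RPKM against 44.4 and 55.8 RPKM with LPS. None of its 4 peaks differed between these groups past the threshold, by limma-trend or by voom. The chromosome 11 run at 44182735 to 44204167 ends in the tall peak described above, and 3 of its 4 peaks rose. The narrowest, at 44194289 to 44194516, had 6.18 and 12 RPKM unstimulated, 15.3 and 21.1 RPKM with fenoterol, 23.8 and 31.5 RPKM with LPS and 23.6 and 22.4 RPKM with both, so fenoterol alone stood between the 2 states there.

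**Figure D4:**
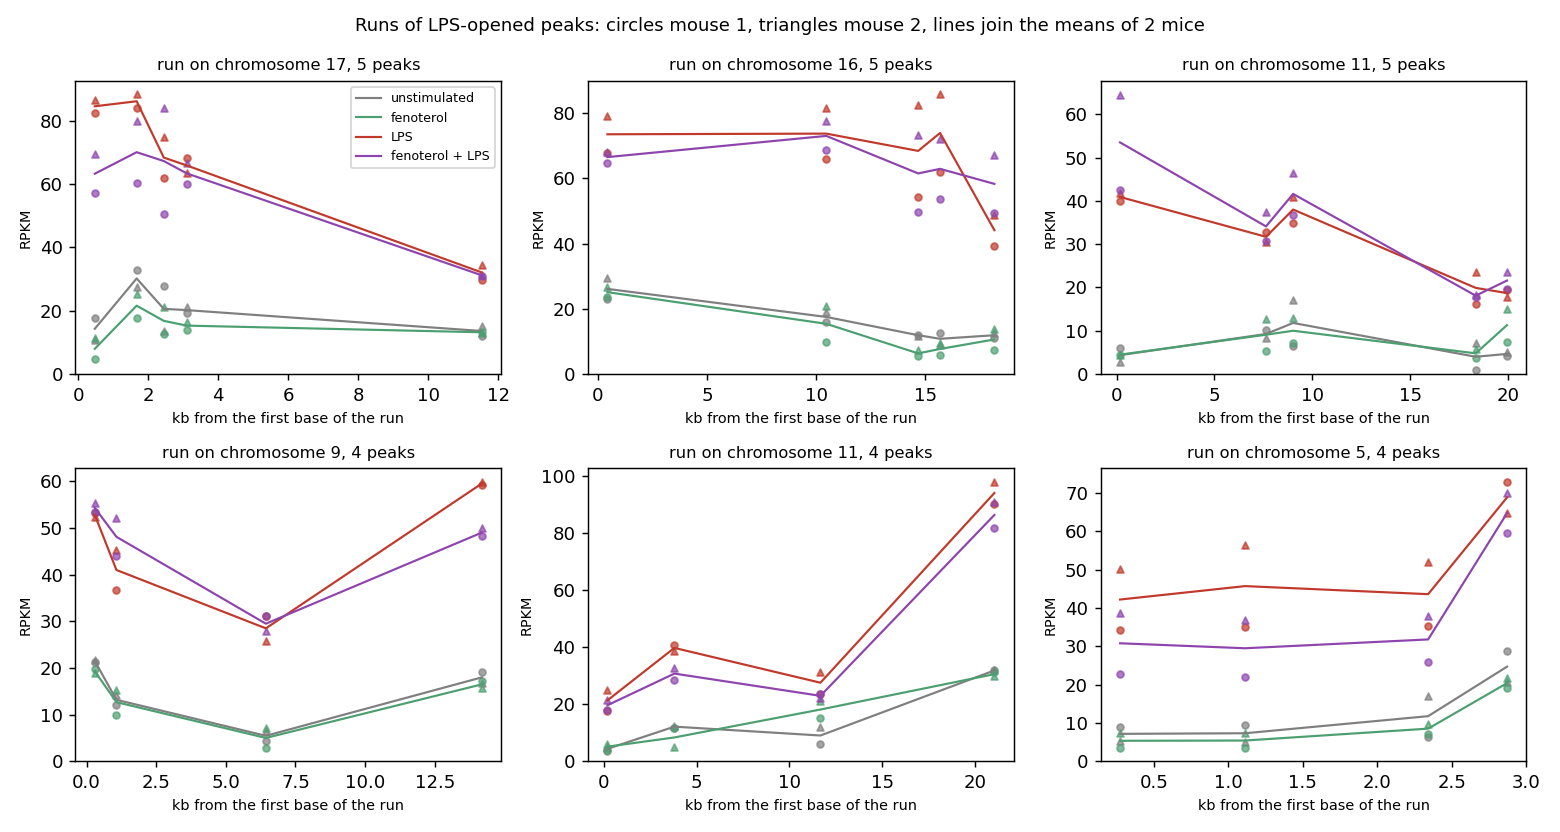
RPKM of each peak in the 6 runs with the most members, against the distance in kb from the first base of the run; circles are mouse 1, triangles mouse 2, and lines join the means of the 2 mice for each group. The lines of the 2 groups with LPS lie above those of the 2 groups without it in all 6 runs, and come closest in the second chromosome 11 run, at its narrowest peak.

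Tested peaks outside the set rose with fenoterol + LPS more often the nearer they lay to it. Of 371 such peaks within 1 kb of a peak of the set, 29.9% rose and 0.809% fell, and of 2271 over 1 and up to 10 kb away 19% rose and 3.35% fell. The shares were 11.9% and 4% for 6556 peaks over 10 and up to 50 kb away and 6.35% and 4.55% for the 55886 peaks farther off. Median log2 differences fell along the same classes from 0.30 through 0.10 and 0.01 to -0.05. Peaks outside the set include those that missed the 2-fold rule by little: of 463 whose lower LPS change lay between log2 0.9 and 1, 72.8% rose, close to the 76.3% of the 380 peaks of the set between 1 and 1.1.

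**Figure D5:**
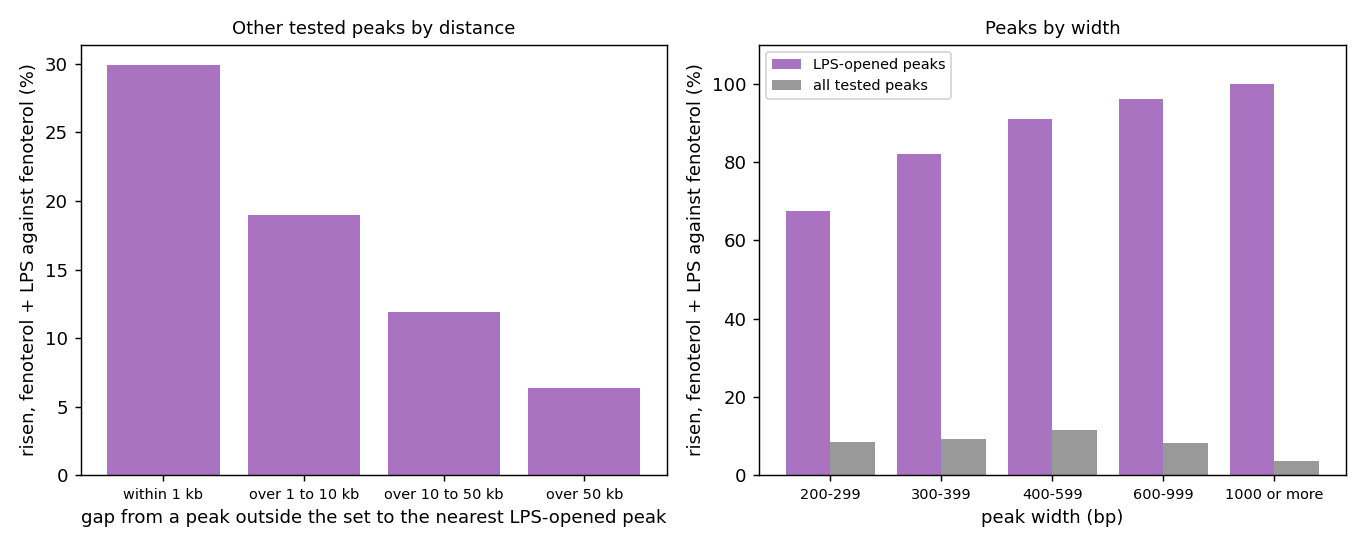
Left, the percentage of tested peaks outside the set that rose in fenoterol + LPS against fenoterol, by the gap to the nearest LPS-opened peak, falling from 29.9% within 1 kb to 6.35% beyond 50 kb. Right, the same percentage by peak width for the LPS-opened peaks (purple), from 67.5% to 100%, and for all tested peaks (grey).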

How the data were processed

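The 8 ATAC-seq libraries came from 2 mice. The authors deposited 1 RPKM value per peak and library for a shared peak set on build mm9; cutadapt, Bowtie2, MACS2 and HOMER are named in the submitters' processing notes. Tool versions, any duplicate removal or Tn5 shift, and whether libraries were pooled to call peaks were not given in the sources used here. Multiplied by peak length, taken as end minus start, 100% of values came within 0.01 read of a whole count, so reads were recovered. The printed widths also count the other end base. RPKM is relative to reads in peaks and hides any change shared by every peak.

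Libraries were scaled with median-ratio factors before log2(RPKM + 4). Peaks with a mean over 9.71 RPKM (the lowest 10% left out) were tested with limma 3.58.1 (limma-trend, 4 group means, all 8 libraries, 4 residual degrees of freedom, prior 16.4; Benjamini-Hochberg, threshold 0.05). Printed RPKM values are as deposited. Rose and fell mean past that threshold. With 2 against 2 no exact permutation test can go below 0.33, and the p-values measure spread over 2 mice, moderated across peaks. Widths count both end bases. On simulated reads, for fenoterol + LPS against fenoterol with 66772 peaks, 6.06% of 66 peaks changed 1.5-fold, 36.5% of 63 changed 2-fold and 87.3% of 71 changed 3-fold were recovered, with 3 false calls. The changed peaks were drawn from all tested peaks and were far fewer than the 9.43% risen and 4.32% fallen in the data. These rates are therefore not the power of the reported comparison at the set.

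Same-numbered libraries come from the same mouse per the labels; differences between the mice correlated across groups at 0.023 to 0.0726. The rule for naming peaks took the 10 largest and 6 lowest changes over fenoterol, the 5 highest LPS levels, the 4 highest and 4 lowest differences to LPS, the 4 highest fenoterol differences, the 6 largest runs, the 3 widest peaks and those at the edge of the rule. The set, the rules and the lists were chosen with earlier results of these data known. Gene lists and motifs were not used, because no mm9 annotation or genome was at hand.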

Additional observations from a re-analysis of the deposited data

Results flagged for a closer look

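Of the 1688 peaks, 3 rose with LPS in both mice without fenoterol, by the rule, but fell short of fenoterol with fenoterol + LPS in both mice. Their log2 differences of fenoterol + LPS and fenoterol were -0.33 on the X chromosome at 137068838 to 137069040, -0.18 on chromosome 11 at 115034103 to 115034454 and -0.06 on chromosome 1 at 192991601 to 192992401. None of the 3 differences passed the threshold by limma-trend. The difference between the 2 LPS responses, tested as an interaction by limma-trend, had unadjusted p of 0.00029, 0.00589 and 6.12e-05 and did not pass after adjustment at any of the 66772 peaks (smallest adjusted p = 0.262). It uses the libraries that chose the set, so it is a description here; 7.88% of the set and 6.33% of all tested peaks had an unadjusted p under 0.05. The chromosome 11 peak had 4 and 5.64 RPKM unstimulated, 14.4 and 12.9 RPKM with fenoterol, 12.9 and 19.6 RPKM with LPS and 11.6 and 11.3 RPKM with both.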

How the results depend on the processing

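In fenoterol + LPS against fenoterol, 1423 peaks rose in the main fit. Under the alternatives that keep both libraries of the groups compared, 1164 (of 1289, with the lowest 25% left out) to 1523 rose and 0 fell. The replicate block, which pairs libraries by mouse, gave 1442, and in LPS against unstimulated 1676 in place of 1662. Shares of all tested peaks are given for this comparison only for the main fit and voom, so nothing is read from the other counts. With single libraries left out, a group of 1 library is assumed to vary like the others. The median log2 difference, 1.42, was 1.75 with a pseudocount of 0.8, 0.75 with 20, 1.79 by voom, 1.78 by voom with the replicate block, and 1.30 to 1.52 with single libraries left out; a larger pseudocount shrinks every log2 difference by construction.

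The size of the set depends on its rule: 2607 and 124 peaks with pseudocounts of 0.8 and 20, 4563 at 1.5-fold, 255 at 3-fold, 2955 to 5289 with 1 mouse left out of the rule, 1573 on scaled values and 2065 with no minimum. The share in runs was 13.3%, 26.8% and 33.6% with gaps of 5, 25 and 50 kb. The difference in median width turned from -16 to 14 bp among peaks of like level.

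In LPS against unstimulated, 896 to 1660 peaks rose with single libraries left out. In fenoterol + LPS against LPS, 11 rose and 10 fell with only the 4 libraries with LPS, 13 and 11 by voom, 14 and 12 by voom with the replicate block, 0 and 1 by quantile normalization and with a pseudocount of 20, and 0 and 0 to 1 with single libraries left out. In fenoterol against unstimulated, 1 rose with values as deposited, quantile normalization, the replicate block, voom and voom with the block, and 0 to 70 rose and 0 to 33 fell with single libraries left out. The causes were not tested. Apart from voom without the block, the shares of all tested peaks called by these alternatives are not given here. Of the 6 peaks lowest against fenoterol, 4 changed sign without 1 library, with ranges of -0.51 to 0.05 on chromosome 6, -0.59 to 0.20 at 119728641 on chromosome 5, -0.53 to 0.32 on chromosome 15 and -0.50 to 0.29 at 149263408 on chromosome 5, none past the threshold. Alternatives for comparisons other than fenoterol + LPS against fenoterol, and voom with the block, were added after seeing the data. Shallow unstimulated reads in mouse 1 limit single values of low peaks.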
